A study of Mus musculus with 18 samples.

Results

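The genes described here encode the proteins of the cytosolic ribosome. They were the protein-coding genes of the mouse annotation GENCODE M21 (build GRCm38) whose symbols start with Rpl or Rps and a digit, together with Rplp0, Rplp1, Rplp2 and Rpsa, leaving out the Rps6k kinases and pseudogenes. The rule found 86 of 21951 protein-coding genes, of which 46 encode large subunit proteins and 31 small subunit proteins. The other 9 carry a matching symbol but are tissue-restricted or retrotransposed copies or differ in function (Rpl3l, Rpl10l, Rpl22l1, Rpl36al, Rpl39l, Rps27l, Rps27rt, Rpl7l1 and Rps19bp1). No expression was measured in these samples.

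Splenic B cells of C57BL/6 background were taken from miR-155-sufficient mice (WT) and from mice deficient in Mir155 (KO). They were enriched by depleting cells with CD43, Ter119 or CD4 and cultured for 2 days at 1% oxygen and 5% CO2. Every culture received anti-CD40 at 1 µg/ml, the F(ab')2 fragment of anti-IgM at 5 µg/ml and interleukin 4 at 4 ng/ml, so both genotypes were compared in the stimulated, hypoxic state. Chromatin was precipitated with an antibody to KDM2A or to H3K36me2, with 3 libraries per genotype and antibody, of which replicate 1 was male and replicates 2 and 3 were female.

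Each ribosome holds 1 copy of almost every one of these proteins, so their genes are transcribed together and strongly, above all in growing cells such as stimulated lymphocytes. Their promoters are mostly rich in CpG dinucleotides and lack methylation. KDM2A is a histone demethylase that removes methyl groups from H3K36me2 and binds unmethylated CpG through its CXXC zinc finger. H3K36me2 is dimethylated lysine 36 of histone H3, a mark of transcribed and intergenic chromatin that is low over CpG islands. The question asked of the data was where KDM2A and H3K36me2 peaks lie at these genes, and whether this differed between WT and KO.

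A CpG island lay within 2 kb of a start of 81 of the 86 genes, and Rpl4, Rpl7l1, Rpl3l, Rps27rt and Rpl39l had none. The promoters below run from 150 bases before to 10 bases from the start of the RefSeq transcript onward, on the strand of the gene, in build GRCm38.p6. CG is in capitals. Rpl41 and Rps18 had some of the highest KDM2A folds. Their strongest peaks lay over the start, except at Rps18 in KO replicate 3. Rplp2 had the lowest KO value relative to WT, Rps4x held a peak in 1 library only, and Rpl10l, Rpl39l and Rps27rt held none.
Rpl41, chr10:128549159-128549318, minus strand: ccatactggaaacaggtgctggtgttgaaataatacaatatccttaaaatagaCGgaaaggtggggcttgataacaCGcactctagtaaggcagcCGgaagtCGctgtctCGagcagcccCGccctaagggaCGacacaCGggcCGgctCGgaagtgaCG
Rps18, chr17:33955656-33955815, minus strand: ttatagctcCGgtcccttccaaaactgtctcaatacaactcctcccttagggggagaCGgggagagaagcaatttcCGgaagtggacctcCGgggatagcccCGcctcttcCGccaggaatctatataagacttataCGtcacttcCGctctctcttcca
Rplp2, chr7:141447501-141447660, plus strand: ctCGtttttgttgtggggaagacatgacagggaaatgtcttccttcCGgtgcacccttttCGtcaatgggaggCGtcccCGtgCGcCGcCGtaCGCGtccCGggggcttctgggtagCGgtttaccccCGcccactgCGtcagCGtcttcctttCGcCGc
Rps4x, chrX:102189382-102189541, minus strand: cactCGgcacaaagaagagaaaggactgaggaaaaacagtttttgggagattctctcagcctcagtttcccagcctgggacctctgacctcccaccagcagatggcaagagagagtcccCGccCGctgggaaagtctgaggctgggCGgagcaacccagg
Rpl10l, chr12:66284392-66284551, minus strand: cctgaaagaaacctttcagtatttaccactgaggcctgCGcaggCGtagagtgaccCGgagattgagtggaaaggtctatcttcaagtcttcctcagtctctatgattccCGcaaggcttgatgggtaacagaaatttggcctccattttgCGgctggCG
Rpl39l, chr16:10170078-10170237, plus strand: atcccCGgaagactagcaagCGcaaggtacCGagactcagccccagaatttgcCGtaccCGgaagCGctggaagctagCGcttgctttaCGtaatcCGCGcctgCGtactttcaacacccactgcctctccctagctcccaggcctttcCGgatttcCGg
Rps27rt, chr9:114982730-114982889, minus strand: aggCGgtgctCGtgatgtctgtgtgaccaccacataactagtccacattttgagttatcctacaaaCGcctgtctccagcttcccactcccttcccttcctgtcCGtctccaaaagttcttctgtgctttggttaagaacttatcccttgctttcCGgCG

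These stretches held 17 CG dinucleotides in Rplp2, 13 in Rpl39l, 11 in Rpl41, 8 in Rps18, 6 in Rpl10l, 6 in Rps27rt and 4 in Rps4x. Rpl39l therefore had more CG than Rpl41 or Rps18 and still no peak in any library. Over the 300 bases from 250 before to 50 after the start, the 86 promoters held a median of 21 CG (range 3 to 42), against 14 over 20320 protein-coding promoters and 22 over the 12401 with a CpG island. The motif CCGGAAG, bound by ETS family factors and itself holding a CG, was found on either strand in 33 of 86 promoters (38.4%), against 12.3% of all promoters, 17.7% of those with an island and 37.2% of those of mitochondrial ribosomal protein genes (Mrpl and Mrps symbols). AAGATGGC, a core of the YY1 motif, was found in 7 (8.14%, against 3.25% of all and 15.4% of the mitochondrial group), and TATAAA in 10 (11.6%, against 12.7% of all, 6.34% of those with an island and 5.13% of the mitochondrial group).

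KDM2A peaks lay at the promoters of nearly all of these genes. A gene was counted when a peak overlapped the 2 kb around any of its annotated starts by at least 1 bp. The members with such a peak made up 94.2%, 91.9% and 88.4% in WT replicates 1, 2 and 3 and 80.2%, 80.2% and 91.9% in KO replicates 1, 2 and 3. In the same lists the shares of all protein-coding genes were 48.4%, 46.8% and 47.2% in WT and 39.8%, 38.6% and 45.2% in KO. The members stood above the 12886 genes with a CpG island in every library, whose shares ran from 59.7% to 71.3%. Mitochondrial ribosomal protein genes, a group of 78 with the symbols Mrpl and Mrps, held a peak in 65.4% to 87.2% of cases. The gap between the members and all protein-coding genes averaged 43.5 percentage points over the 6 libraries.

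**Figure D1:**
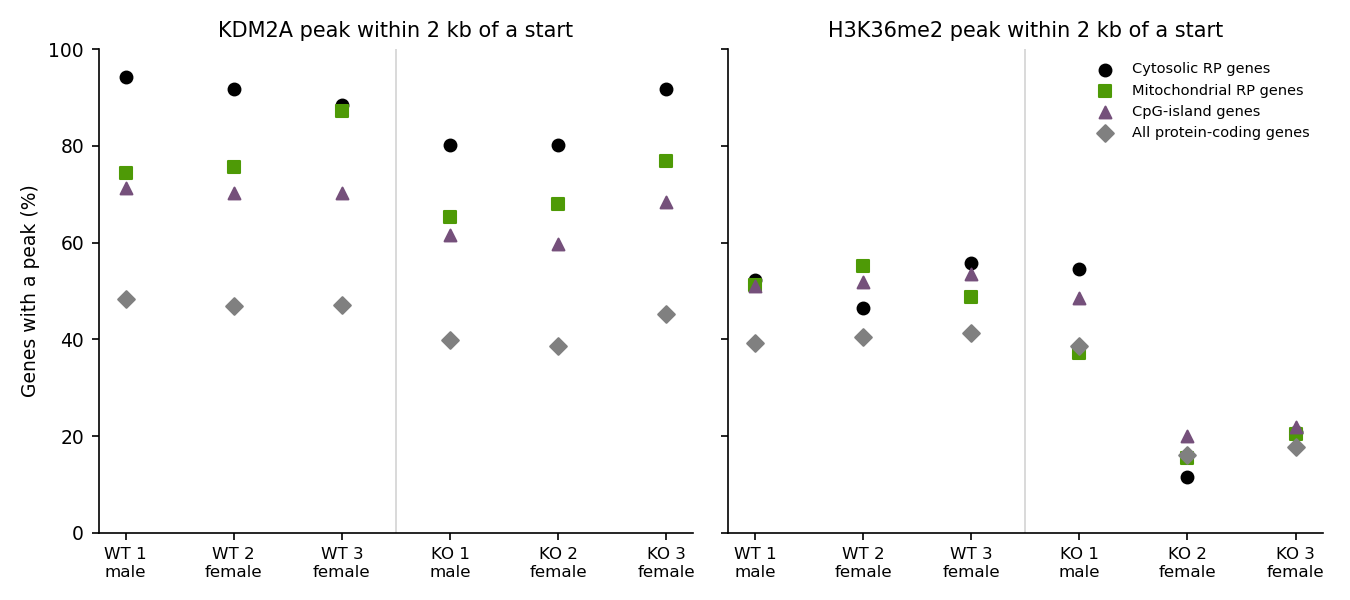
Percent of genes with a KDM2A peak (left) or an H3K36me2 peak (right) within 2 kb of an annotated start, with 1 point per library and gene group (RP, ribosomal protein). For KDM2A the cytosolic RP genes lie between 80.2% and 94.2% and above the other groups in all 6 libraries, and for H3K36me2 the female KO libraries lie at 11.6% and 20.9% of the cytosolic RP genes.

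The occupancy was shared across libraries. A peak was present in all 6 libraries at 57 of the 86 members (66.3%), against 42.4% of genes with an island and 26.4% of all protein-coding genes. Another 16 members had a peak in 5 libraries, 4 in 4, 4 in 3, 1 in 2 and 1 in 1, and 3 had none. The subunits gave like counts, with 31 of 46 large subunit genes and 23 of 31 small subunit genes occupied in all 6. Of the 9 other genes 3 were occupied in all 6 and 3 in none. A start of another protein-coding gene lay within 2 kb of 21 members, and 20 of those were occupied in all 6 libraries, against 37 of the 65 without such a neighbour. A peak at these 21 genes cannot be assigned to the ribosomal protein gene alone.

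Occupancy was set beside the CG count. Across 20320 protein-coding promoters the Spearman correlation of the CG count in 300 bases with the number of libraries holding a peak was 0.58, and across the 86 members it was 0.12. The difference between these correlations was not tested, since 57 of the 86 members were occupied in 6 libraries and 16 in 5, and 1 and 4 members fell in the ranges under 5 CG and of 5 to 9 CG, which leaves little range. These points share libraries, and the values are a description. Of promoters with 10 to 14 CG, 22.2% were occupied in all 6 libraries, whereas 8 of the 13 members in that range were. Of promoters with 30 or more CG, 52.8% were occupied in all 6, and 10 of 13 members were. SnoRNA genes, which are hosted in introns of many ribosomal protein genes, lay in 30 members, of which 22 were occupied in all 6, against 35 of the 56 without one.

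The height of the peaks differed little from that of other promoters. The fold is the authors' enrichment of a peak over the control background, and the strongest peak in the window stood for each gene. The median fold of the members came to 3.09, 3.35 and 3.10 in the WT libraries and to 3.08, 3.00 and 3.08 in the KO libraries. Over all protein-coding genes it came to 2.90, 3.16 and 2.99 in the WT libraries and to 2.97, 2.90 and 2.94 in the KO libraries. The median of the members thus lay slightly above that of all genes in each library, while single members spread from 2.68 to 4.10 in their mean over 6 libraries. The order of the members was only partly shared between libraries, with Spearman correlations over the 57 members of 0.39 to 0.44 among WT libraries and 0.015 to 0.41 among KO libraries. Between a WT and a KO library they were 0.10 to 0.45. The value of 0.015 came from KO replicates 2 and 3. Over all 5799 genes with a peak in all 6 libraries the correlations were 0.28 to 0.31 among WT and 0.24 to 0.27 among KO libraries. Between a WT and a KO library they were 0.25 to 0.30 over those genes. These values are a description over genes that share libraries.

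**Figure D2:**
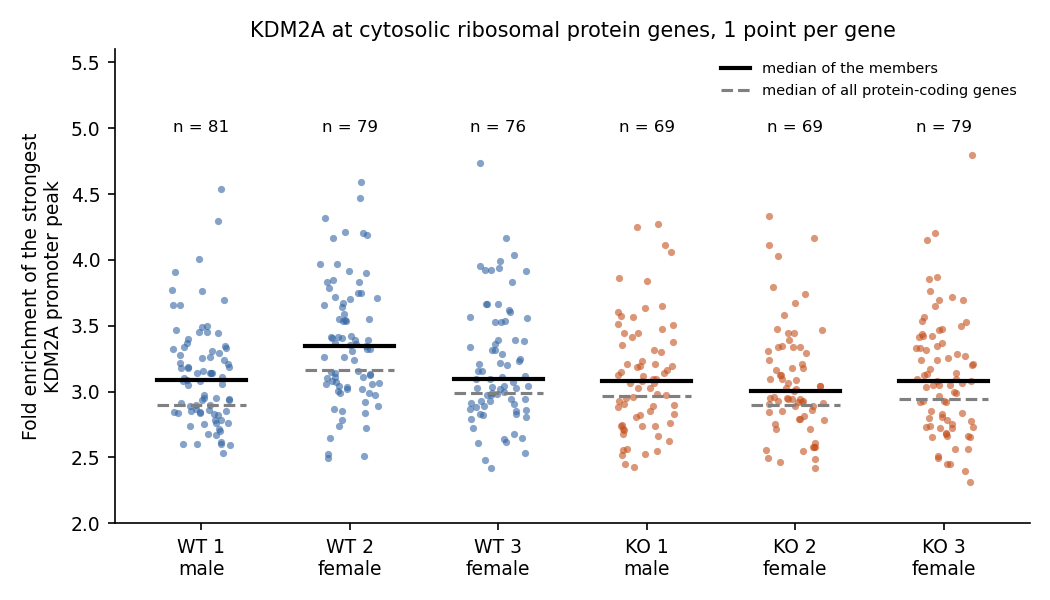
Fold enrichment of the strongest KDM2A promoter peak, with 1 point per cytosolic ribosomal protein gene holding a peak (n above each library), a black bar at the median of the members and a gray dashed bar at the median of all protein-coding genes. The medians of the members lie between 3.00 and 3.35 and slightly above those of all genes, and the points of WT and KO overlap.

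The highest mean fold belonged to Rpl18, which encodes a large subunit protein (chr7:45715457-45720836). Its folds of 3.65, 4.59 and 4.74 in WT overlapped those of 3.41, 3.39 and 4.80 in KO. In every library but WT replicate 3 this peak lay upstream of the RefSeq start, its nearest end at −2676 to −1532 bp, and the starts of Sphk2 and Fam83e lie within 2 kb of a start of Rpl18. Rpl41, the gene of the smallest ribosomal protein (chr10:128548114-128549305), followed with 4.01, 4.47 and 3.53 in WT and 3.48, 3.80 and 3.20 in KO. Its peaks covered the start printed above in all 6 libraries and were 1971 to 7878 bp wide.

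Rps18, a protein of the small subunit head (chr17:33951999-33956001), had folds of 3.70, 3.75 and 3.54 in WT and 4.06, 3.58 and 3.77 in KO. WT and KO overlapped, and the strongest peak covered the RefSeq start in every library but KO replicate 3. Rps19bp1, an interaction partner of Rps19 and not a ribosomal protein, had 3.40, 4.32 and 3.95 in WT and 4.28, 3.00 and 2.80 in KO. Rpl11, which binds Mdm2 together with Rpl5 when ribosome assembly fails, had 3.28, 4.16 and 4.17 in WT and 3.50, 3.34 and 3.24 in KO. The ranges overlapped for both genes. The Rps19bp1 value of WT replicate 3 came from a peak 1348 to 12096 bp downstream of the RefSeq start.

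The lowest folds among members occupied in all 6 libraries were those of Rpl3l, Rps10 and Rpl19. Rpl3l, the striated muscle paralog of Rpl3 and a gene without an island, had 2.84, 2.78 and 2.68 in WT and 2.68, 2.57 and 2.49 in KO. In WT replicate 1 the strongest Rpl3l peak lay at −5114 to −4414 bp from the RefSeq start. Its RefSeq promoter held 3 CG, the fewest of all members. Rps10 had 2.70, 3.04 and 2.64 in WT and 2.71, 3.02 and 2.73 in KO, and Rpl19 had 2.75, 3.26 and 2.91 in WT and 2.43, 2.81 and 2.83 in KO.

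The acidic stalk of the large subunit, which recruits translation factors, is built from Rplp0, Rplp1 and Rplp2. Rplp0 had folds of 3.77, 3.83 and 3.00 in WT and 3.20, 3.48 and 3.27 in KO. Rplp1 had 2.95, 3.08 and 3.24 in WT, no peak in KO replicate 1, and 2.47 and 3.09 in the other KO libraries. The Rplp1 peak of WT replicate 3 lay 1392 to 1976 bp downstream. Rplp2 had 3.65, 3.97 and 3.83 in WT and 3.07, 2.89 and 3.00 in KO, with each KO library below each WT library. All 6 of the Rplp2 peaks covered the RefSeq start.

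Among proteins with further known roles, Rps6, the substrate of the S6 kinases, had 3.31 and 2.51 in WT replicates 1 and 2, no peak in WT replicate 3, and 2.85, 3.29 and 3.14 in KO. Rps19, mutated in Diamond-Blackfan anaemia, had 3.08, 3.70 and 2.91 in WT and 2.98, 2.71 and 3.47 in KO, and the value of WT replicate 3 came from a peak 5821 to 6318 bp downstream. Rpl5 had 3.91, 3.02 and 2.98 in WT, and 4.25, no peak and 3.13 in KO. The genotypes overlapped at all of these genes. Rpsa, also known as the laminin receptor, had 3.14, 3.13 and 3.03 in WT, no peak in KO replicate 1, and 3.03 and 3.42 in the others. Rps27a, a fusion with ubiquitin, had 2.93, 3.42 and 3.92 in WT and 3.65, 3.05 and 2.78 in KO, and its promoter held 6 CG in 300 bases.

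**Figure D3:**
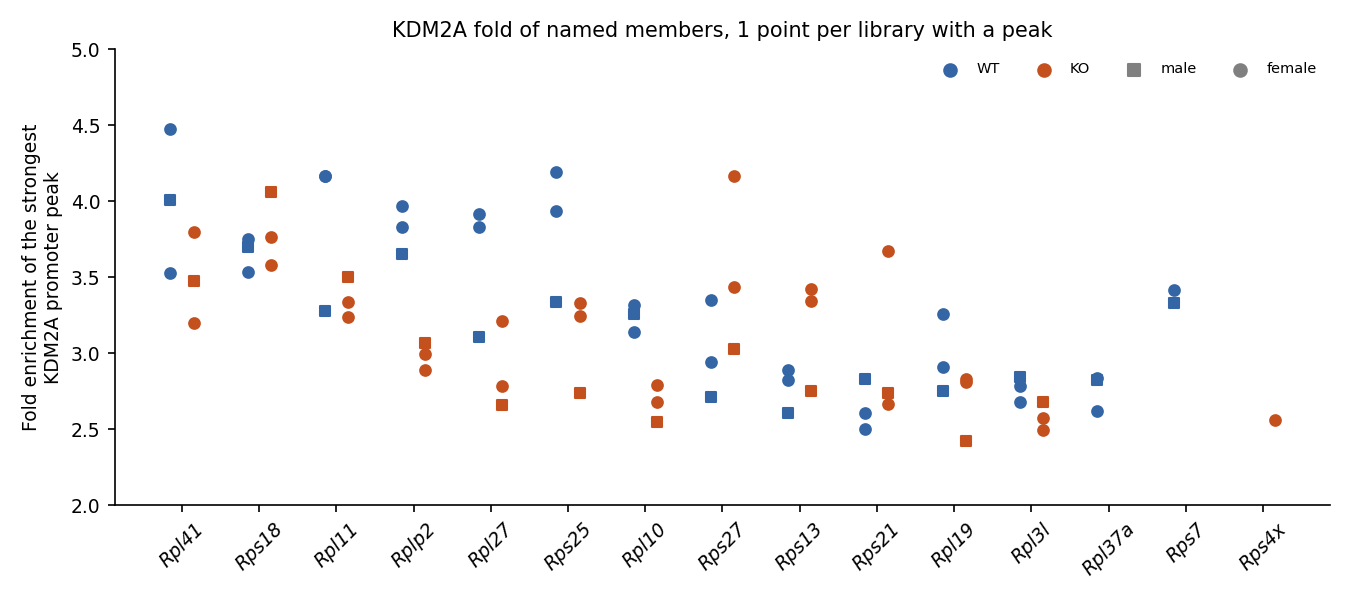
Fold enrichment of the strongest KDM2A promoter peak at 15 members, with 1 point per library holding a peak (blue WT, orange KO, squares male, circles female). Rplp2, Rps25 and Rpl10 show KO points below all WT points, Rpl37a and Rps7 show WT points only, and Rps4x shows a single KO point.

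The X chromosome carries 4 of the members, and peaks were scarcer there. Rpl10 had a peak in all 6 libraries, Rpl36a and Rpl39 in 3 each, and Rps4x in KO replicate 3 only, with a fold of 2.56 and a position 1672 to 2147 bp downstream of its start. X-linked protein-coding genes with an island held a peak in all 6 libraries in 3.05% of 361 cases, against 43.6% of 12524 on autosomes. On X the share ran from 9.14% in the male KO to 31.6% in a female KO library, and the males, with 1 X chromosome, held the 2 lowest values, 9.14% and 18.3%. The strongest peak of Rpl10 lay over the RefSeq start in 2 libraries and at least 1421 bp downstream in the other 4, so its folds come from more than 1 site.

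Rpl10l, Rpl39l and Rps27rt had no KDM2A peak within 2 kb of a start in any of the 6 libraries. Rpl10l (chr12:66283379-66284401) and Rps27rt (chr9:114982366-114982739) are intronless copies of Rpl10 and Rps27, and Rpl10l and Rpl39l are known from the testis. Their parent genes Rpl10 and Rps27 were occupied in all 6 libraries and Rpl39 in 3. Of the other related copies, Rpl36al was occupied in all 6 libraries and Rps27l and Rpl7l1 in 5, while Rpl22l1 was occupied in 2 WT and 2 KO libraries. Reads from sequences shared with near-identical copies may have been lost in the alignment, and the part of this was not tested.

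The peaks sat over the start and ran on into the gene. The strongest peak covered the RefSeq start for 85.2%, 87.3% and 85.5% of the members with a peak in WT and for 72.5%, 76.8% and 83.5% in KO. The 100 bp with the most members under a peak lay 0 to 200 bp downstream of the start and held 89.7%, 85.0% and 82.3% of members in WT and 66.5%, 70.0% and 81.4% in KO. In the first 1 kb after the start, peaks covered 58.7% ± 5.7 of the bases in the WT libraries, against 41.7% ± 4.1 in the KO libraries (SD, n = 3 per genotype). For genes with an island these values were 34.3% ± 2.1 and 27.9% ± 4.2.

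From 2 to 5 kb downstream of the start, the members lay under peaks over 32.3%, 23.4% and 23.0% of bases in WT and 15.1%, 6.8% and 16.2% in KO. Each KO library was below each WT library. Genes with an island had 7.1%, 5.0% and 5.8% in WT and 2.9%, 2.4% and 4.6% in KO there. The members are short, with a median length of 3328 bp in the annotation, so much of this region lies past the end of the gene.

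**Figure D4:**
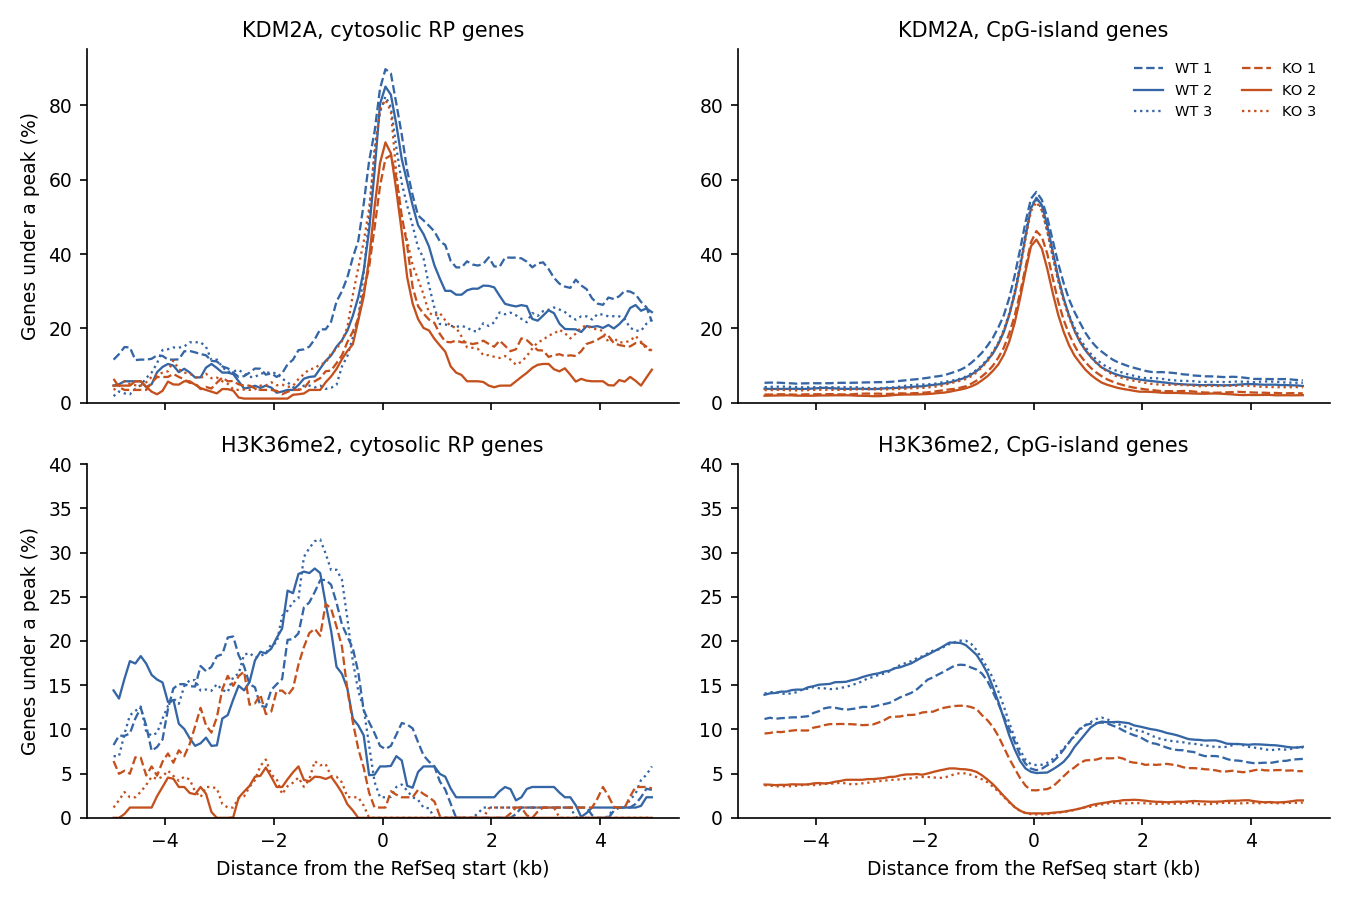
Percent of genes under a KDM2A peak (top) or H3K36me2 peak (bottom) in 100 bp bins within 5 kb of the RefSeq start, for the cytosolic ribosomal protein (RP) genes (left) and genes with a CpG island (right), with 1 line per library. KDM2A is highest at the start, where 66.5% to 89.7% of the members lie under a peak, and H3K36me2 of WT members is highest about 1 kb upstream and low over the gene.

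Peak widths were compared as a description. The median width of the strongest promoter peak came to 1693, 998 and 890 bp in the WT libraries and to 645, 688 and 797 bp in the KO libraries, so that each KO library lay below each WT library. The KO mean was 0.59 of the WT mean, against 0.80 for short genes (under 5 kb) with an island and 0.87 for all genes with an island. WT replicate 1 carried much of this gap, and without it the ratio was 0.75 for the members, 0.90 for the short genes and 0.92 for genes with an island, and the members' difference in width went from −484 to −234 bp. KDM2A peaks covered 43.8%, 36.6% and 30.7% of the members' gene bodies in WT and 24.0%, 17.2% and 26.8% in KO, again without overlap. The same separation was seen over all protein-coding genes, with 6.30% ± 0.84 in the WT libraries against 4.14% ± 0.99 in the KO libraries (SD, n = 3 per genotype) and no overlap. KO coverage divided by WT coverage came to 0.61 for the members, 0.63 for mitochondrial ribosomal protein genes, 0.66 for all genes, 0.68 for genes with an island and 0.75 for the short ones. The KO lists were also shorter over the whole genome, with 15387 to 21705 peaks against 23372 to 29105 in WT. Read depth is unknown, a broad peak grows with depth, and the part of depth in these widths was not tested.

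Whether single members differed in KDM2A fold between genotypes was tested in limma across all protein-coding genes with a peak in all 6 libraries, on the log2 fold centred within each library. Of the 86 members 57 could be tested and 29 lacked a peak in at least 1 library. No member passed an adjusted p of 0.05 in limma (Benjamini-Hochberg), and 0 of 5799 genes did (0%). At an unadjusted p under 0.05 in limma, 3 of the 57 members were lower in KO, against 2.1% of all genes tested, and 2 were higher, against 3.16%. The median difference, KO minus WT, was −0.0067 on the log2 scale over the 57 members and 0.0020 over all 5799 genes. Of the 57, 30 (52.6%) were below 0, against 49.4% of all genes. The sign of the members' median changed under some of the alternatives given at the end, so no direction is read from it.

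The largest differences belonged to Rplp2, Rpl27 and Rps25 in one direction and to Rps27, Rps13 and Rps21 in the other. Rplp2 differed by −0.29 ± 0.11 (log2, SE, limma adjusted p = 0.91), with a mean fold of 3.82 ± 0.16 in the WT libraries against 2.98 ± 0.089 in the KO libraries (SD, n = 3 per genotype). Rpl27 had folds of 3.11, 3.83 and 3.92 in WT and 2.66, 2.78 and 3.21 in KO, a difference of −0.26 ± 0.12. The ranges overlapped at Rpl27. Rps25, which is needed for translation from some internal ribosome entry sites, had 3.34, 4.19 and 3.94 in WT and 2.74, 3.24 and 3.33 in KO, a difference of −0.24 ± 0.13. Its highest KO value lay just under its lowest WT value. The strongest Rps25 peak of KO replicate 1 lay at −2792 to −2365 bp, while the peaks of the other 5 libraries covered the start, and without that library the difference was −0.15.

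Rps27 had folds of 2.71, 3.35 and 2.94 in WT and 3.03, 4.17 and 3.44 in KO, a difference of 0.30 ± 0.13 with overlap. Rps13 had 2.60, 2.89 and 2.82 in WT and 2.75, 3.34 and 3.42 in KO, a difference of 0.25 ± 0.11. At Rps13 the male KO value lay between the WT values before centring and above all of them after it. Rps21 had 2.83, 2.50 and 2.61 in WT and 2.74, 3.67 and 2.67 in KO, and KO replicate 2 alone was above the WT range. Without KO replicate 2 the difference was 0.16 at Rps27 and 0.080 at Rps21. The strongest Rps21 peak covered the RefSeq start in 3 of the 6 libraries, and that of Rps13 in all but WT replicate 1. The adjusted p was 0.91 in limma for each of these 6 genes.

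After centring, each KO library lay below each WT library at 4 of the 57 members (Rpl10, Rplp2, Rps2 and Rps25), against 5.21% of all genes tested. Each KO library lay above each WT library at 2 members (Rpl38 and Rps13), against 5.26%. Both shares are near the background, 4 of 57 being 7.02% and 2 of 57 being 3.51%. Rpl10 was counted with 3.25, 3.14 and 3.31 in WT and 2.54, 2.79 and 2.68 in KO, and Rps2 with 3.77, 3.91 and 3.62 in WT and 3.21, 3.07 and 3.50 in KO. Rpl38 had 2.67, 3.02 and 2.93 in WT and 3.14, 3.10 and 3.05 in KO.

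Presence of a peak was compared without a test. More WT than KO libraries held a peak at 19 members and more KO than WT libraries at 3, which is 22.1% and 3.49% of members, against 25.7% and 9.17% of genes with an island. The share of members with a peak averaged 91.5% ± 2.9 in the WT libraries, against 84.1% ± 6.7 in the KO libraries (SD, n = 3 per genotype), with KO replicate 3 equal to WT replicate 2. Rpl37a (chr1:72711290-72713813) was the only member with a peak in all 3 WT libraries and in no KO library, with folds of 2.82, 2.84 and 2.62. This 1 of 86 (1.16%) stands beside 0.793% of all protein-coding genes. Rps7 had a peak in WT replicates 1 and 2 only, at 3.33 and 3.42. No member had a peak in all KO libraries and none in WT.

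A rule modelled on that of the study was also applied. The study worked on consensus peaks and on peak signal divided by input, whereas here the unit was the promoter and the value the deposited fold of its strongest peak. A promoter counted as bound when 2 of 3 libraries held a peak, and as enriched in a genotype when the mean fold exceeded 3 there and was over 1.17 times that of the other genotype, or the other genotype was not bound. Of the 82 members bound in either genotype, 9 were WT-enriched, which is 11.0% against 11.4% of all 10987 bound genes. These were Rpl4, Rpl6, Rpl10, Rpl27, Rpl27a, Rpl36a, Rplp2, Rps7 and Rps25. Another 3 were KO-enriched (Rpl14, Rpl37 and Rps27), which is 3.66% against 2.1%. The rule has no test, and the ratio of KO to WT means ran from 0.78 at Rplp2 to 1.33 at Rpl14. Some of these means mix sites. The strongest Rpl4 peak lay at −663 to −377 bp in KO replicate 1 and at least 5608 bp downstream of the RefSeq start in the other libraries. That of Rpl6 in KO replicate 3 lay 1354 to 1805 bp downstream.

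H3K36me2 was scarce over the bodies of the members. The libraries had an H3K36me2 peak over the body of 25.6%, 16.3% and 12.8% of members in WT and of 11.6%, 2.33% and 3.49% in KO. For short genes, defined as those under 5 kb, with an island the shares were 23.2%, 20.8% and 22.0% in WT and 18.7%, 3.76% and 3.38% in KO. The mean percent of the gene body under peaks came to 4.26, 4.20 and 2.81 in the WT libraries and to 1.82, 0.49 and 0.45 in the KO libraries at the members. At the short genes it came to 6.48, 6.43 and 6.77 in WT against 4.41, 0.83 and 0.63 in KO. Each KO library lay below each WT library in both groups. The lists differed in length, with 85387 to 94136 H3K36me2 peaks in WT, 106720 in the male KO, and 37447 and 45180 in the female KO libraries. They covered 4.17% to 5.32% of the genome in WT, 3.63% in the male KO, and 1.59% and 1.44% in the female KO libraries. The male KO list also had a highest −log10 q of 52.3, against 230 to 789 in the other H3K36me2 lists. The members' KO minus WT difference of −2.84 points was −1.48 with equal numbers of peaks and −0.40 with peaks of −log10 q of at least 2. As a ratio to the share of the genome under peaks it was −0.41. Apart from these alternatives, the part of list length in the H3K36me2 values of the members was not tested.

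Around the start the mark formed a shoulder upstream of the members. It was most frequent 1100 to 1300 bp upstream in WT, where the highest bin held 26.9%, 28.2% and 31.5% of members, and in KO the highest bins held 24.2%, 5.8% and 6.6%. Other groups had a like shoulder in WT, with 25.1% to 29.9% in the highest bin of mitochondrial ribosomal protein genes and 19.1% ± 1.5 (SD, n = 3) in that of genes with an island. In the first 1 kb downstream, peaks covered 8.5%, 5.5% and 2.2% of bases in WT and 2.4%, 0% and 0% in KO. From 1 to 2 kb downstream the members had 1.4% ± 1.4 in WT (SD, n = 3), against 10.5% ± 0.3 for genes with an island and 3.28% ± 0.64 for the mitochondrial group. Within 2 kb of the start, H3K36me2 peaks (averaged over the libraries of the same genotype) lay over 10.3%, 6.37% and 7.33% of the bases under KDM2A peaks in WT, and over 12.5%, 14.1% and 13.2% of the other bases.

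An H3K36me2 peak within 2 kb of a start was present at 52.3%, 46.5% and 55.8% of members in WT, at 54.7% in the male KO library, and at 11.6% and 20.9% in the female KO libraries. The male KO value thus lay within the WT range and the female KO values well below it, as did the lengths of the female KO lists. The same split was seen over all protein-coding genes, with 39.3% to 41.4% in WT, 38.6% in the male KO and 16.1% and 17.7% in the female KO libraries. Rpl11, Rpl19, Rpl23 and Rps14 held such a peak in all 6 libraries. A peak in all WT libraries and in no KO library was found at 4 members (4.65%), Rpl6, Rps12 and Rps26 among them, against 2.12% of all protein-coding genes and 3.01% of those with an island.

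Only 33 members had H3K36me2 over the body in any library, and 20 of those in 1 library. The highest means belonged to Rpl3l, Rps14, Rpl11, Rpl32 and Rpl17. Rpl3l had 24.1%, 35.0% and 82.7% of its body under peaks in WT and 25.3%, 0% and 15.5% in KO, with overlap between the genotypes through the male pair. Rps14, a small subunit gene on chromosome 18 whose loss defines the 5q- syndrome, had 50.6%, 46.8% and 37.9% in WT and 24.4%, 17.2% and 4.7% in KO. Rpl11 had 35.8%, 37.1% and 40.4% in WT and 25.0%, 25.1% and 18.1% in KO.

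The annotated spans of Rps14 and Rpl11 are 31449 and 25164 bp, and their RefSeq transcripts span 3951 and 4040 bp. Over the RefSeq spans Rps14 had 25.8%, 0% and 6.7% in WT and 0% in each KO library, and Rpl11 had 10.2% in WT replicate 2 and 0% elsewhere. Most of the marked sequence of both genes thus lay outside the body of the usual transcript. Rpl32 had 67.3% in WT replicate 2 and 0% in the other 5 libraries. Rpl17 had 44.5% and 11.9% in WT replicates 2 and 3 and 0% elsewhere.

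**Figure D5:**
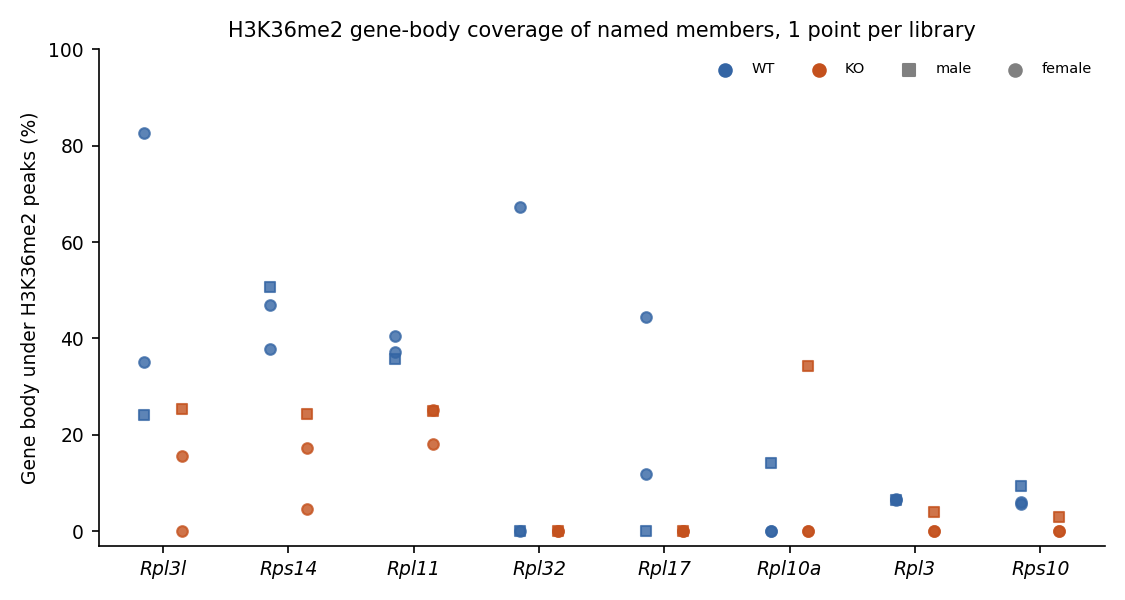
Percent of the annotated gene body under H3K36me2 peaks at 8 members, with 1 point per library (blue WT, orange KO, squares male, circles female). Rps14, Rpl11, Rpl3 and Rps10 show KO points below all WT points, and Rpl32 and Rpl17 rest on 1 or 2 WT libraries.

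The limma test of H3K36me2 coverage took genes with a body peak in at least 4 of the 6 libraries, which kept 5 members and left out 81. None of the 5 passed an adjusted p of 0.05 in limma, and 0 of 7061 genes did (0%). At an unadjusted p under 0.05 in limma, 4 of the 5 (Rpl3, Rpl3l, Rps10 and Rps14) were lower in KO, against 31.3% of all genes tested, and 0 were higher, against 0.0708%. Each KO library lay below each WT library at 4 of the 5 (Rpl3, Rpl11, Rps10 and Rps14), against 36.9% of all. With 5 genes tested, these are counts only. A gene can meet the filter through all WT libraries and a single KO library, as Rpl3 and Rps10 did. A lower KO value is then partly built into the selection, for the members and for all genes tested, so no conclusion is drawn from these counts.

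In percentage points, the differences were −29.7 ± 9.7 for Rps14 (SE, limma adjusted p = 0.14), −33.7 ± 14.5 for Rpl3l (0.15) and −15.1 ± 8.9 for Rpl11 (0.22). For Rpl3l the difference was −16.0 without WT replicate 3, and for Rps14 it was −12.6 with equal numbers of the strongest peaks per list. Rpl3 had 6.5%, 6.5% and 6.8% in WT and 4.1%, 0% and 0% in KO, and Rps10 had 9.4%, 5.6% and 6.0% in WT and 2.9%, 0% and 0% in KO. Without KO replicate 1, Rps14 alone of the 3 members still tested passed (difference −34.2 points, limma adjusted p = 0.022), where 40.6% of 5214 genes passed with a lower KO value. In female libraries alone it was again Rps14 of 3 members tested, where 49.3% of 5487 genes passed. Members with more coverage in KO were Rpl10a, with 14.1%, 0% and 0% in WT and 34.3%, 0% and 0% in KO, and Rpl36al and Rpl5, with 24.5% and 3.0% in the male KO library and 0% in every other.

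Other genes of translation were described by lists. Of 8 genes of elongation and related factors 7 were occupied in all 6. Of 29 initiation factor genes 21 were occupied in all 6, and of 34 ribosome biogenesis genes 13 were. The shares were 42.4% of genes with an island and 26.4% of all protein-coding genes. By this count the biogenesis genes did not stand above those with an island. In single libraries the picture differed, with a peak at 82.4% of the biogenesis genes in each WT library and at 55.9% to 85.3% in KO. The WT share lay above the range of genes with an island given earlier, and the KO shares reached both sides of it. None of the 41 genes tested in these lists passed an adjusted p of 0.05 in limma, and the fitted difference was below 0 for 26 of them, against 49.4% of all genes tested.

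As a check of the labelled cells, all 7 B cell marker genes held a KDM2A promoter peak in every WT library. Each KO library held 6 of the 7, and 5 genes had a peak in all 6 libraries, as Blk lacked one in KO replicate 1 and Ms4a1 in KO replicates 2 and 3. Erythroid markers had no KDM2A peak in any library, and T cell, myeloid and NK markers had one at 0% to 50% of 2 to 4 genes. H3K36me2 did not follow this order. In the WT libraries its peaks covered on average 5.5% to 6.6% of the bodies of the B cell markers. The values were 23.0% to 28.0% at myeloid, 41.5% to 50.0% at NK, 0% to 4.0% at T cell and 0% at erythroid markers. A peak of either antibody does not measure expression, so this check is weak. The labels do not say whether replicates came from separate cultures or animals, apart from the sex, so the spread between libraries may be partly technical.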

How the data were processed

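Peaks of KDM2A and H3K36me2 ChIP-seq in 12 libraries were used, and 6 inputs were not used here except through the lists. Per the study's methods, the nf-core/chipseq pipeline was run with BWA on GRCm38 and MACS2. The files are in the broad peak format, and the authors deposited 1 list per library, without pooling. The deposited fold of each peak is a ratio over the local control background and is not scaled between libraries. The deposited −log10 p and −log10 q values served to rank and filter peaks, and the deposited score was not used. The lists hold no counts of reads, so depth is unknown and no counting interval can be given.

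Genes and starts came from GENCODE M21, and RefSeq starts were matched for all 86 members. CpG islands were computed from GRCm38.p6 (over 200 bp, GC of at least 50%, observed over expected CpG above 0.6). A promoter was 2 kb on both sides of any start. The log2 fold, centred within each library, and the percent of the gene body under H3K36me2 peaks were fitted with limma 3.58.1 in R 4.3.3, with Benjamini-Hochberg adjustment over all genes tested and a threshold of 0.05. The fit was also run on simulated normal values with the same spread for every gene. The simulated KDM2A shifts were larger than any difference at a member, so that run does not give the power at the sizes seen. Counts over members carry no test. Other values were computed in Python 3.11.15.

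Named genes were the members with the 5 highest and 3 lowest folds, the 3 largest differences in each direction, those with no peak or with a peak in every library of 1 genotype only, those with the most or most changed H3K36me2, and a list of well known members and paralogs (Rps4l was not analysed here). Other members, such as Rps2, Rpl38, Rps7 and the X-linked genes, were named after their values were seen. The members and lists were chosen with earlier results of these data known. Alternatives were stricter peaks, equal list lengths, other windows, starts and spans, other scalings, the replicate block, female libraries only and leaving out each library. The RefSeq span, and leaving out libraries for peak width and KDM2A coverage, were chosen after seeing the data. Some genes are not reported here.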

Additional observations from a re-analysis of the deposited data

Results flagged for a closer look

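Of the 24 values examined, 3 moved one way in the male libraries and the opposite way in all female libraries. Each genotype had 1 male library, and this difference between the sexes was not tested. Each female KO library was set against each female WT library, so the female differences share libraries. The share of members with an H3K36me2 promoter peak was 2.33 percentage points higher in male KO than in male WT, while the female KO minus WT differences averaged −34.9 points (−44.2 to −25.6). For the H3K36me2 coverage of Rpl3l the male difference was 1.14 points and the female differences averaged −51.1 (−82.7 to −19.5). For the centred log2 KDM2A fold of Rps21 the male difference was −0.045 and the female differences averaged 0.39 (0.059 to 0.71). The H3K36me2 lists of the female KO libraries were also the shortest (37447 and 45180 peaks) and the male KO list the longest (106720), with the lowest highest −log10 q (52.3), so sex and library cannot be told apart for that antibody.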

How the results depend on the processing

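No member passed the KDM2A test under any alternative run, the replicate block included. The gap in KDM2A share between members and all genes stayed at 42.8 to 44.1 percentage points when 1 library was left out. The KO minus WT difference of the members' KDM2A share (−7.36) was −17.4 with peaks of −log10 q of at least 2, −1.94 when the peak centre had to lie in the window, −4.07 in female libraries alone, and −11.2 to −5.43 without 1 library. The median log2 difference of KDM2A fold (−0.0067) was 0.0041 by peak centre, 0.0031 with equal numbers of peaks, 0.0094 in a 500 bp window and −0.069 without centring (−0.061 over all genes), and −0.028 to 0.014 without 1 library, so its sign is not determined. The H3K36me2 body difference (−2.84 points) was −0.40 with −log10 q of at least 2, −1.48 with equal numbers of peaks, −1.46 from 2 kb downstream of the start, −6.69 from 2 kb upstream, −0.41 as a ratio to the share of the genome under peaks, and −3.31 to −2.59 without 1 library. The H3K36me2 count of members called (0) was 1, Rps14, in female libraries alone or without KO replicate 1, and 0 to 1 when 1 library was left out. In female libraries Rps14 differed by −31.4 points (limma adjusted p = 0.027), where 49.3% of 5487 genes passed. The replicate block left that count at 0 and moved the count over all genes from 0 to 38. Same-numbered WT and KO libraries had correlated deviations of −0.019 to 0.016 for KDM2A and −0.069 to 0.066 for H3K36me2, so beyond the sex (replicate 1 male, 2 and 3 female) no pairing was seen. The cause of these shifts was not tested, and depth, which is unknown, limits every count of peaks.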

Other observations

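Processed pseudogenes of ribosomal proteins, which are intronless copies scattered over the genome, were outside the comparisons. Of 287 such pseudogenes, 6.27%, 5.92% and 4.88% in WT and 1.74%, 4.53% and 3.48% in KO had a KDM2A peak within 2 kb of the start. Of all 9940 processed pseudogenes, 3.98%, 3.10% and 3.54% in WT and 1.81%, 1.61% and 2.56% in KO did. Among the 252 ribosomal pseudogenes with no protein-coding start within 4 kb, the KDM2A shares were 3.57%, 2.78% and 3.17% in WT and 0.794%, 3.17% and 2.38% in KO. H3K36me2 peaks lay at 20.2%, 20.9% and 23.3% of the 287 in WT and at 23.3%, 10.5% and 12.5% in KO, against 14.0% to 16.2% and 7.13% to 15.5% of all processed pseudogenes. Most copies of these genes thus had no KDM2A peak, whereas 80.2% to 94.2% of the members did.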
